A study of Mus musculus with 2 samples.

Results

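The ETS family of transcription factors was described at 10 of its genes by the open chromatin around them in mouse thymus, as mapped by DNase-seq. ETS proteins share a DNA-binding domain that recognises a GGAA core, and members differ in the flanking letters they prefer and in the cells that make them. Ets1, Fli1, Elf1 and Elf4 are known in mouse lymphoid cells, where Ets1 acts in T cell development. Spi1 encodes PU.1, a master regulator of myeloid cells that must be shut off as T cells form, and Spib encodes a related factor of B cells and plasmacytoid dendritic cells. Gabpa encodes the DNA-binding subunit of GABP, Etv6 a repressor that blood stem cells need and Ets2 a factor that responds to growth factor signalling, and all of these are made in many tissues. Elf3 is an ETS gene of epithelia. The 10 genes were chosen by name, out of 21938 protein-coding genes of the GENCODE annotation on chromosomes 1 to 19, X and Y. Each was described over its gene body and 20 kb on each side.

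DNase-seq cuts open chromatin with the nuclease DNase I, and a peak is a stretch where cuts pile up. Short stretches inside open chromatin that are spared from cutting are called footprints. The tissue was thymus, taken at an age of 36 days from males of the F1 hybrid strain B6CASTF1/J, and gave 2 libraries. No treatment or genetic change is given in the labels. The labels number the libraries as biological replicates 2 and 1, and they are called labelled replicate 2 and labelled replicate 1 here. Since the labels give 1 donor identifier for both, it is not clear whether 1 mouse or several were used. The 2 libraries form 1 group, so no difference between them could be tested and every value below is a description. Whole tissue holds several cell types, and fewer cells of a type and less open chromatin per cell cannot be told apart.

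The library labelled as replicate 1 went against its tissue label. Of 14 thymocyte marker genes, 14 had a promoter peak in labelled replicate 2 and 3 in labelled replicate 1, and their promoter signals summed to 91.8 and 9.23. Cd3d, Cd3e, Cd3g, Cd4, Cd8a, Cd8b1, Rag1 and Rag2 were among the 11 with none in labelled replicate 1. Of 11 genes of the pancreatic acinar cell, 4 had a promoter peak in labelled replicate 2 and 11 in labelled replicate 1, with summed signals of 12.5 and 66.5. Lists for B cells (3 and 2 of 7 genes), macrophages and dendritic cells (1 and 2 of 8), endothelium (3 and 2 of 6) and epithelium (4 and 5 of 8) differed less in their counts. The epithelial signals summed to 8.55 and 22.2, and for all these sums the scale between the libraries is not known. Every value is therefore given for each library alone. The part that cell types other than thymocytes play in the results for the ETS genes was not tested.

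**Figure D1:**
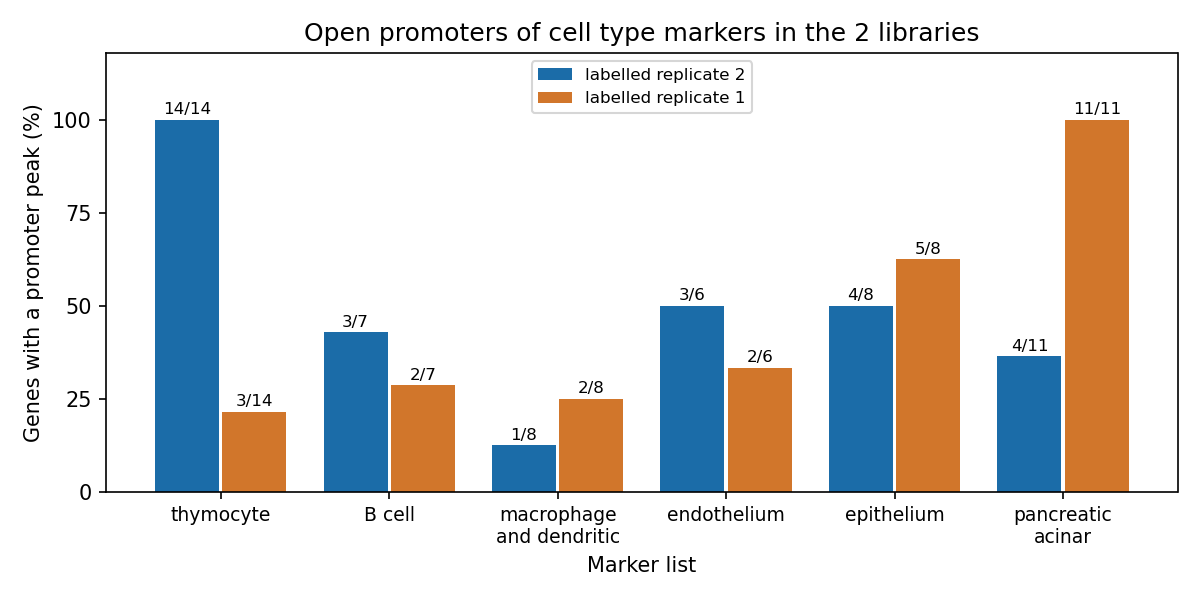
Share of each marker list (vertical axis, percent of genes) with a promoter peak in labelled replicate 2 (left bar) and labelled replicate 1 (right bar), with counts over the bars. The thymocyte list reaches 14 of 14 in labelled replicate 2 and 3 of 14 in labelled replicate 1, and the pancreatic acinar list 4 of 11 and 11 of 11.

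A promoter peak is a peak within 1 kb of any annotated transcript start of the gene. Such a peak was found at 9 of the 10 ETS genes in labelled replicate 2 and at 7 in labelled replicate 1, against 60.1% and 63.1% of all protein-coding genes. In both libraries, 7 of the 10 had one, against 56.7% of all genes. These 7 were Ets1, Elf1, Elf4, Gabpa, Etv6, Ets2 and Elf3. Fli1 and Spi1 had one in labelled replicate 2 only, as 3.37% of all genes did, and no member had one in labelled replicate 1 only, as 6.41% of all genes did. Spib had none in either. With the longer deposited peak lists Fli1 and Spi1 had a promoter peak in labelled replicate 1 too, and 9 of the 10 were then open in both libraries.

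No source used here says how the authors scaled the signal of a peak. Signals were whole multiples of a step of 0.00771 in labelled replicate 2 and 0.00784 in labelled replicate 1 (within 0.05 steps in 100% of entries). What 1 step stands for is not stated either. Levels are therefore set side by side as percentiles, each among the strongest promoter peaks of the 13176 genes of labelled replicate 2, or the 13843 genes of labelled replicate 1, that have one. The members ran from 20.7 to 95.4 in labelled replicate 2 (median 33.4) and from 16.4 to 84.9 in labelled replicate 1 (median 60.0), so the members differed widely in level within each library.

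**Figure D2:**
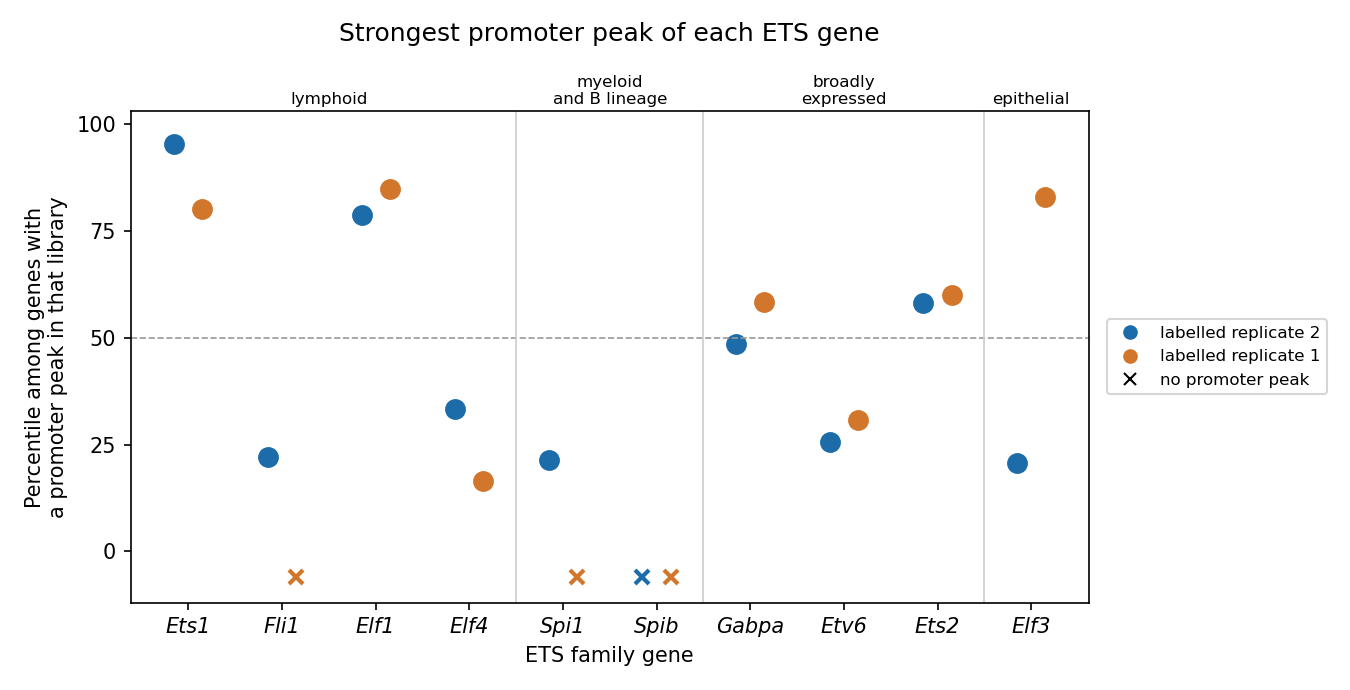
Percentile of each gene's strongest promoter peak (vertical axis) among all genes with one in the same library, for labelled replicate 2 (left point) and labelled replicate 1 (right point); crosses mark genes with no promoter peak, and the dashed line is the median gene. Ets1 (95.4 and 80.2) and Elf1 (78.7 and 84.9) lie high in both libraries, and Elf3 lies at 20.7 in labelled replicate 2 and 82.9 in labelled replicate 1.

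Ets1 (ENSMUSG00000032035.15, mm10 chromosome 9, 32636221 to 32757820, plus strand) had the highest promoter percentile of the 10 in labelled replicate 2. Its only promoter peak had a signal of 21.6 in labelled replicate 2 (95.4th percentile) and 7.49 in labelled replicate 1 (80.2nd). The peak lay 59.8 kb inside the gene as GENCODE draws it, at 32695861 to 32696080 in labelled replicate 2. It covers position 32696037, where 5 of the 6 curated RefSeq transcripts of Ets1 start. The sixth starts at 32636241, at the 5' end of the gene, and no peak lay within 1 kb of that start in either library. The part of the peak before the start is printed because its footprints were found in both libraries; capitals mark the bases inside a footprint of both, and all sequences here are the letters of the GRCm38.p6 reference, not those of the hybrid animals.
Ets1 promoter, chr9:32695861-32696021, plus strand: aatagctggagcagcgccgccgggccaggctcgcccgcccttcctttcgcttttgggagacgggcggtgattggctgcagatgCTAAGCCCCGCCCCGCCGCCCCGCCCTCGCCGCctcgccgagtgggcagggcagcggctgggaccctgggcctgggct
It was 73.9% G and C and held GGGCGG, the letters of the SP and KLF motif, in 5 places counting both strands, 3 of them within the capitals. It held the ETS core GGAA once, outside the capitals, and the longer ETS consensus CCGGAAGT nowhere.

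Distal peaks are those outside the promoter windows of all genes, and among the 10 genes Ets1 had the most of them in labelled replicate 2. Labelled replicate 2 had 23 distal peaks in the Ets1 domain of 161.6 kb and labelled replicate 1 had 3. That is 14.2 and 1.86 per 100 kb, at the 98.6th and 44.1st percentile of all protein-coding genes. By count the gene stood at place 35 in labelled replicate 2 and at place 5593 in labelled replicate 1, ties sharing the first place of the tie. Of the peaks, 2 were shared, those in introns at +36.2 kb (signal 5.85 and 1.00) and +70.0 kb (3.80 and 1.34), distances being from the 5' end of the gene. Between +104.7 and +112.4 kb, within introns, labelled replicate 2 had 9 peaks that labelled replicate 1 lacked, with signals up to 5.43. Not all of the 23 were strong: 8 of them, between +76.5 and +78.9 kb, had signals of 0.293 to 0.586, below the 10th percentile of all peaks of that library. Counting the stronger 50% of each library's peaks alone gave 7 distal peaks in labelled replicate 2 and 1 in labelled replicate 1, and the longer lists gave 38 and 7.

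The strongest distal peak of Ets1 in labelled replicate 2 is printed for its first 300 bases; it lies in an intron and the capitals again mark footprints of both libraries.
Ets1 intron, chr9:32672181-32672480, plus strand: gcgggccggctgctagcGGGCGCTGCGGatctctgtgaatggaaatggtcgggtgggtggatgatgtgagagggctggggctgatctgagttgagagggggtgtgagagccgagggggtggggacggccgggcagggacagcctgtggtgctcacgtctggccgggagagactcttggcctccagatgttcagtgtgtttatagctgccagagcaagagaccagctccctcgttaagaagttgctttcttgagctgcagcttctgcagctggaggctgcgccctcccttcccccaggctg
The shared footprint took 11 bases of it. The window held GGAA 2 times, CAGCTG (the E protein motif) once and TGTGGT (the RUNX motif) once, all outside the footprint.

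Fli1 (ENSMUSG00000016087.13, chromosome 9, 32422204 to 32542861, minus strand) is the neighbour of Ets1 and is transcribed away from it. It encodes a factor of blood progenitors, megakaryocytes and endothelium that T cells also make. Its 3 promoter peaks in labelled replicate 2 had signals of 1.39, 2.87 and 3.01, and the strongest stood at the 22.2nd percentile. It stood at the 10.7th with the gene's 5' end as the only start, and at the 10.5th among the genes left when the stronger 50% of peaks were counted. The entries with 2.87 and 3.01 overlap. Labelled replicate 1 had no promoter peak there, though the lowest false discovery rate of its cut rate table in that window was 0.0093, so some cutting was listed. Distal peaks numbered 7 in labelled replicate 2 and 1 in labelled replicate 1, and the 1 was shared, downstream of the gene; the longer lists gave 20 and 3. In introns labelled replicate 2 had a peak of 6.79 at +26.8 kb and one of 7.94 at +32.95 kb, the second at the annotated start of the gene Gm38346, and labelled replicate 1 listed neither.
Fli1 intron, chr9:32515961-32516140, minus strand: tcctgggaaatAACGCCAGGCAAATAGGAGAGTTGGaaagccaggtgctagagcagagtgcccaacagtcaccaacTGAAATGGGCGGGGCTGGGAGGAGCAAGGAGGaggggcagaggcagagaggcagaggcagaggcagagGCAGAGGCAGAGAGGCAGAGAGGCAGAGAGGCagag
This is the +26.8 kb peak, on the strand of the gene, with the footprints of labelled replicate 2 in capitals. Of these 3 footprints, 1 overlapped a footprint of labelled replicate 1. The sequence held GGGCGG once, within the capitals, and GGAA 2 times, neither wholly within them.

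The stretch of 93.4 kb between Fli1 and Ets1 was described too. It held 20 peaks in labelled replicate 2 and 3 in labelled replicate 1, and all 3 overlapped a peak of labelled replicate 2. The strongest had signals of 9.41 in labelled replicate 2 and 2.82 in labelled replicate 1. The 20 kb on each side that belong to the domains of the 2 genes are part of this stretch.

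Elf1 (ENSMUSG00000036461.16, chromosome 14, 79481194 to 79582494, plus strand), a factor of T cell genes, had 3 promoter peaks in each library. The strongest had a signal of 13.9 in labelled replicate 2 (78.7th percentile) and 8.11 in labelled replicate 1 (84.9th). It lay just before the start, a window that the divergent gene Wbp4 shares, so the peak cannot be given to 1 of the 2 genes. The next strongest, 11.6 in labelled replicate 2 and 5.62 in labelled replicate 1, lay in an intron near the start, over a tRNA gene. RefSeq places the gene n-TEttc4 for a glutamate tRNA at 79481668 to 79481739, the only tRNA gene of 403 that falls in a member's domain, and it was looked up after the sequence had been read.
Elf1 intron, chr14:79481638-79481820, plus strand: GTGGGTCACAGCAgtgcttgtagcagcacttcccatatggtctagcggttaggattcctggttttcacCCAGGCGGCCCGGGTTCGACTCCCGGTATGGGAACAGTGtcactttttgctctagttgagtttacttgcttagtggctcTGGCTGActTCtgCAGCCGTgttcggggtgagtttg
Capitals mark footprints of both libraries. They covered bases 39 to 72 of the 72-base tRNA gene, counted from its start, the part with the B box, an inner promoter element of tRNA genes.

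Elf1 had 14 distal peaks in labelled replicate 2 and 8 in labelled replicate 1, or 9.91 and 5.66 per 100 kb (96.5th and 80.1st percentile). In each, 3 were shared. The order of the libraries turned with the stronger 50% of peaks, which gave 2 and 5, and the longer lists gave 27 and 10. Of the 14, 10 lay between +36.2 and +54.3 kb in introns and 1 more at +56.4 kb in an exon of a noncoding transcript, and none of these overlapped a peak of labelled replicate 1. Their signals were modest, 1.09 to 2.67. The strongest distal peak stood at the 65.4th percentile of all peaks in labelled replicate 2, at +37.6 kb, and at the 76.3rd in labelled replicate 1, at +46.8 kb.

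Elf4 (ENSMUSG00000031103.12, chromosome X, 48411046 to 48463132, minus strand) encodes a factor that restrains the division of CD8 T cells in mice. It had 4 promoter peaks in labelled replicate 2 and 5 in labelled replicate 1. The peak at the 5' end had a signal of 4.58 in labelled replicate 2 and 1.71 in labelled replicate 1. The peak at an inner start 8.81 kb further on had 4.98 and 1.05. The strongest promoter peak stood at the 33.4th percentile in labelled replicate 2 and at the 16.4th in labelled replicate 1. Distal peaks numbered 10 in labelled replicate 2 and 3 in labelled replicate 1, and all 3 were shared. With the stronger 50% of peaks the counts were 6 and 3. Introns held the strongest in labelled replicate 2, 6.61 at +29.4 kb and 6.17 at +37.7 kb, and labelled replicate 1 listed no peak at either. The strongest in labelled replicate 1 was a shared peak downstream of the gene, 6.10 in labelled replicate 2 and 3.40 in labelled replicate 1.

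Spi1 (ENSMUSG00000002111.8, chromosome 2, 91082390 to 91115756, plus strand) had 1 promoter peak in labelled replicate 2, with a signal of 2.87 (21.3rd percentile), and none in labelled replicate 1, where the lowest listed false discovery rate was 0.0329. That peak lay inside the gene, more than 500 bp from every annotated start, so a window of 500 bp did not count it. Both distal peaks of the gene were shared, and the longer lists gave 2 and 4. The intron peak at +19.2 kb had 9.28 in labelled replicate 2 and 4.75 in labelled replicate 1, the 90.3rd and 89.8th percentile of all peaks. The other lay in the last coding exon, which encodes the DNA-binding ETS domain, at +32.8 kb. It had 2.42 in labelled replicate 2 and 12.9 in labelled replicate 1, the 62.2nd and 99.8th percentile of all peaks, and was the only distal peak of the 10 genes among the strongest 1% of either library's peaks.
Spi1 intron, chr2:91101501-91101680, plus strand: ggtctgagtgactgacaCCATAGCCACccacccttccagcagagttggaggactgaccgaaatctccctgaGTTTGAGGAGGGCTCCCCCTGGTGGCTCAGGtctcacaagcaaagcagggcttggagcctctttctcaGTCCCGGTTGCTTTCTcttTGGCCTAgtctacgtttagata
Spi1 last exon, chr2:91115161-91115320, plus strand: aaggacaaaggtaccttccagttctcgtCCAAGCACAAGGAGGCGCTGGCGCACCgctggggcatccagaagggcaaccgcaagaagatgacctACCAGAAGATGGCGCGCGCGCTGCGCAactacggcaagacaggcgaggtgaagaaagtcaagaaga
Capitals mark footprints of both libraries. The intron sequence held the core of the CTCF motif, CCAC, N, AG, N, GG in a row, on its minus strand and within a footprint. Neither held CCGGAAGT, and each held GGAA once outside the capitals.

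Upstream of Spi1, mouse myeloid cells are known to use a regulatory element well before the start. No peak was listed between −16.7 and −12.9 kb in either library, a stretch where that element lies. The strongest upstream peak, 15.5 at −11.9 kb in labelled replicate 2 and 5.11 in labelled replicate 1, was at a start of the neighbour Slc39a13. The macrophage and dendritic marker list had promoter peaks at 1 and 2 of 8 genes, against 60.1% and 63.1% of all genes. Its median distal density was 3.20 and 1.96 per 100 kb, against 1.60 and 2.16 over all genes. The part of myeloid cells in the result for Spi1 was not tested.

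Spib (ENSMUSG00000008193.13, chromosome 7, 44525993 to 44532071, minus strand) was the only member with no promoter peak in either library. No interval with a false discovery rate under 0.05 was listed in its promoter windows, where 65.7% of all genes in labelled replicate 2 and 68.4% in labelled replicate 1 had one. The other 9 members had one in both libraries. It had 3 distal peaks in each library and all were shared. They lay in a coding exon (4.99 and 2.14), in the exon of the 3' UTR (5.68 and 1.54) and downstream at about 10 kb from the start (4.38 and 2.20), each value for labelled replicate 2 first. A peak of 32.7 in labelled replicate 2 and 13.9 in labelled replicate 1, at −16.9 kb, was at the start of Pold1, a DNA polymerase subunit gene.

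**Figure D3:**
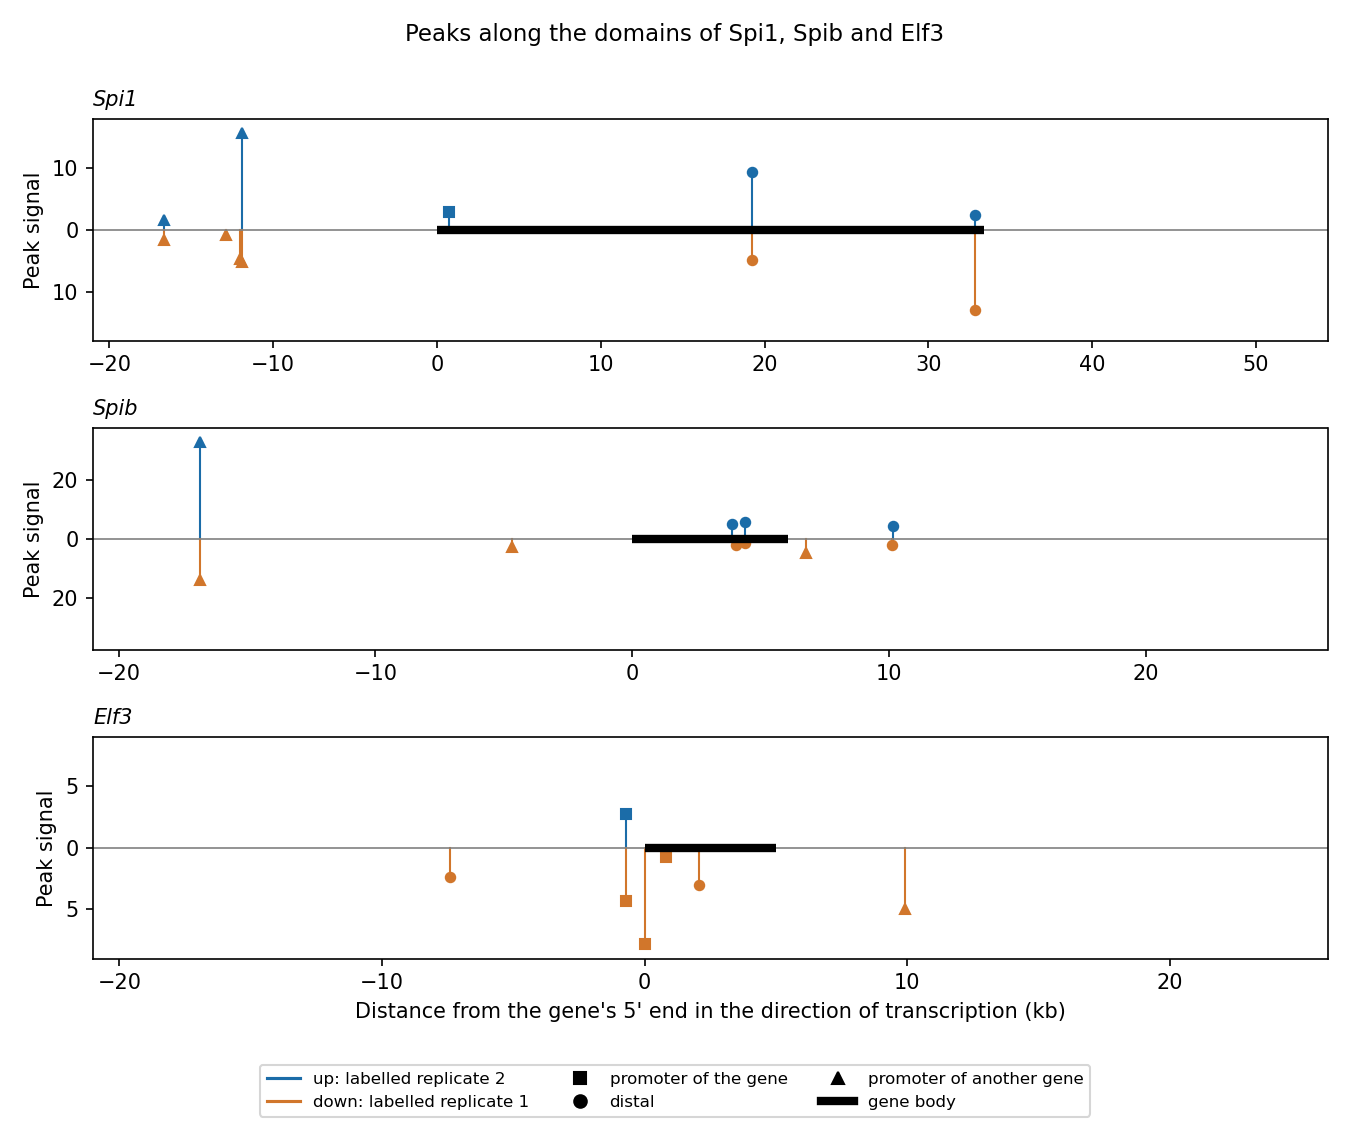
Signal of each peak (vertical axis) against the distance of its centre from the 5' end (horizontal axis, kb) for Spi1, Spib and Elf3, with labelled replicate 2 drawn up and labelled replicate 1 drawn down; the scale between libraries is not known, and squares, circles and triangles are promoter, distal and other genes' promoter peaks. The Spi1 exon peak at +32.8 kb reaches 2.42 up and 12.9 down, and Elf3 has a peak of 7.83 at its start in labelled replicate 1 only.

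Gabpa (ENSMUSG00000008976.16, chromosome 16, 84834925 to 84863779, plus strand) had 4 promoter peaks in each library, in a window shared with Atp5j, a subunit gene of the mitochondrial ATP synthase. The strongest had 7.59 in labelled replicate 2 and 5.44 in labelled replicate 1, the 48.5th and 58.3rd percentile. Distal peaks numbered 1 in labelled replicate 2 and 3 in labelled replicate 1, and 1 was shared, downstream of the gene. With the stronger 50% of peaks the counts were 1 and 0, so their order turned. The partner subunits Gabpb1 and Gabpb2 had promoter peaks in both libraries as well, at the 56.0th and 87.2nd percentile in labelled replicate 2 and the 40.4th and 71.8th in labelled replicate 1. These GABP genes thus had a promoter peak in both libraries, as 56.7% of all genes did. The promoter peaks of Gabpa all lay in the window shared with Atp5j, so they cannot be given to 1 of the 2 genes.

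Etv6 (ENSMUSG00000030199.16, chromosome 6, 134035700 to 134270158, plus strand) stood at similar promoter percentiles in both libraries. The strongest promoter peak had 3.61 in labelled replicate 2 (25.5th percentile) and 3.19 in labelled replicate 1 (30.8th). Its distal peaks were not alike: 2 in labelled replicate 2 and 27 in labelled replicate 1, with none shared. The stronger 50% of peaks gave 0 and 13, and the longer lists 9 and 37. By count the gene stood at place 5559 in labelled replicate 2 and at place 69 in labelled replicate 1. Its domain spans 274.5 kb, and per 100 kb there were 0.729 and 9.84 distal peaks (40.9th and 93.3rd percentile of all genes). By density it stood at place 12975 in labelled replicate 2 and at place 1470 in labelled replicate 1. All 27 lay in introns, and the strongest had 5.75 at +76.0 kb, the 93.1st percentile of that library's peaks. The 2 of labelled replicate 2 had 1.25 and 1.21, at +154.3 and +205.5 kb.

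Ets2 (ENSMUSG00000022895.16, chromosome 16, 95702075 to 95721051, plus strand) also had more distal peaks in labelled replicate 1. Its 3 promoter peaks reached 9.37 in labelled replicate 2 and 5.57 in labelled replicate 1, the 58.0th and 60.0th percentile. Distal peaks numbered 1 in labelled replicate 2 and 10 in labelled replicate 1, or 1.70 and 17.0 per 100 kb (51.7th and 98.4th percentile). The counts were 0 and 5 with the stronger 50% of peaks, 1 and 5 with flanks of 5 kb and 16 and 21 with flanks of 100 kb. The 1 in labelled replicate 2 was shared, at +2.15 kb (1.32 and 1.26). Of the 10, 5 lay before the gene, and the strongest of them had 3.74 at −19.4 kb.

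**Figure D4:**
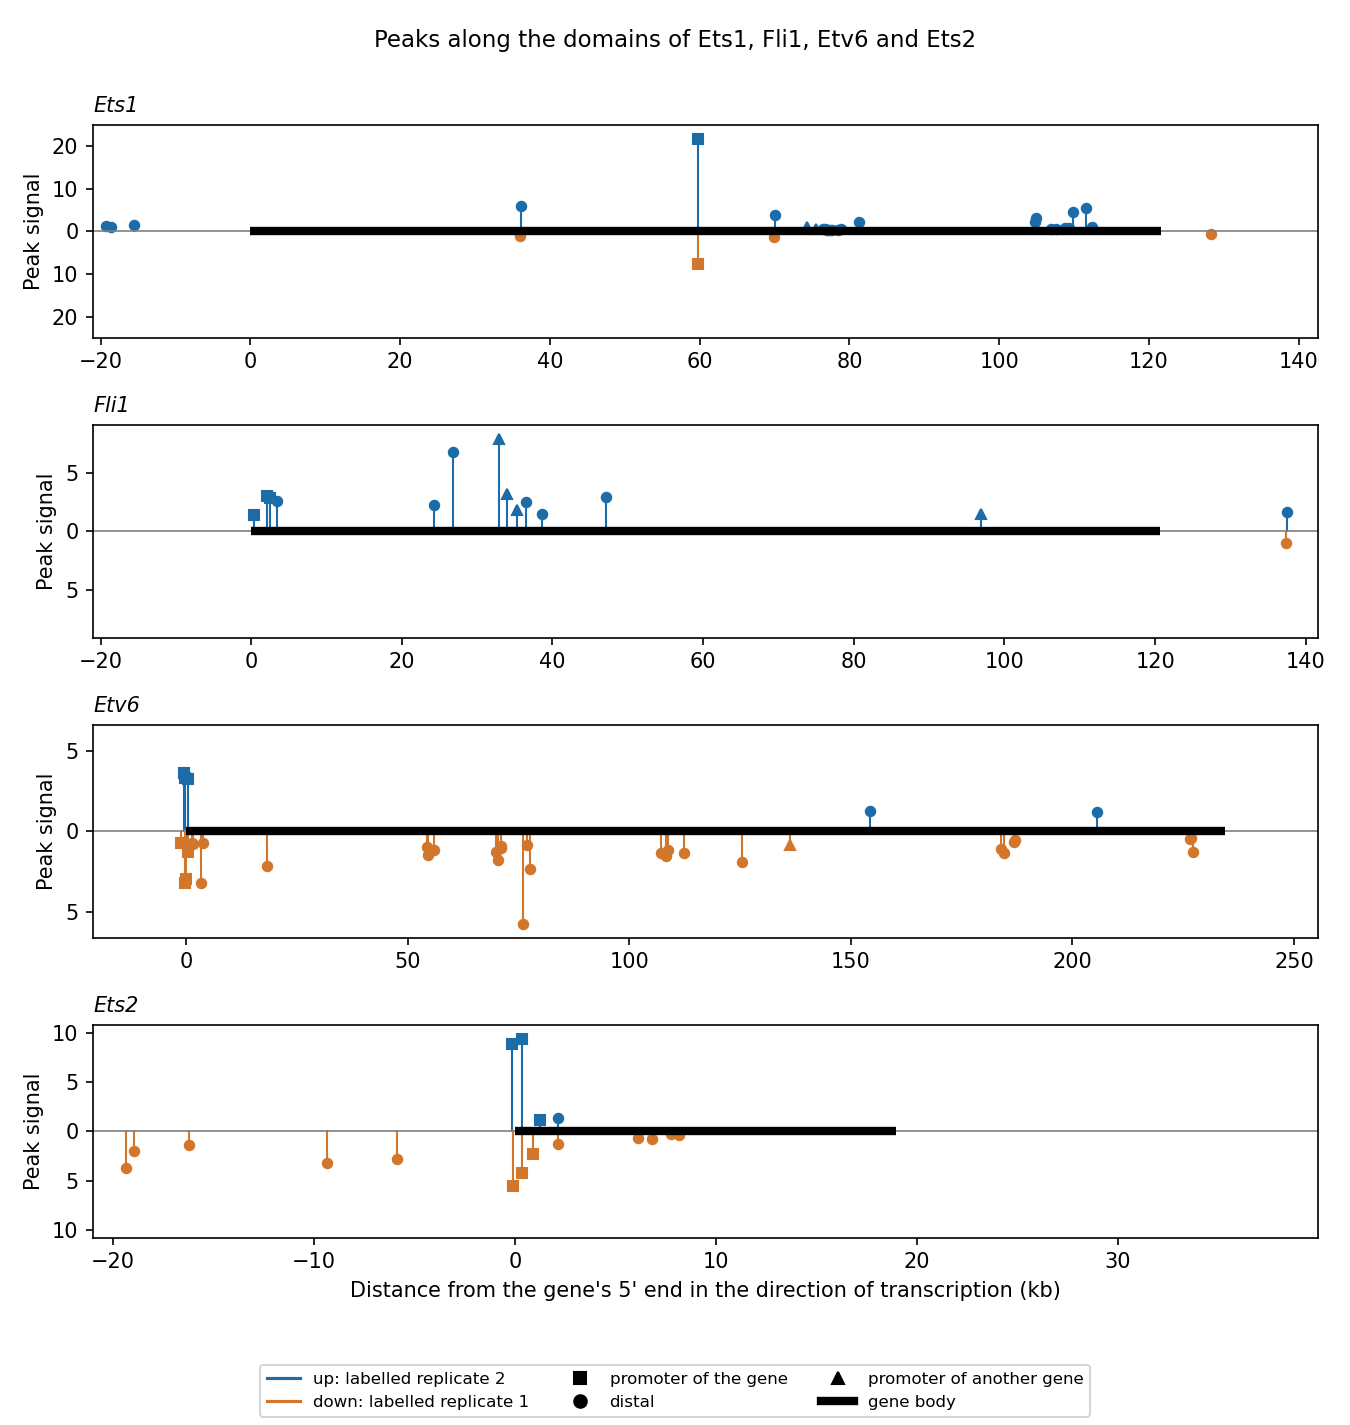
Signal of each peak (vertical axis) against the distance of its centre from the 5' end (horizontal axis, kb) for Ets1, Fli1, Etv6 and Ets2, with labelled replicate 2 drawn up and labelled replicate 1 drawn down; the scale between libraries is not known, and the black bar is the gene body. Distal peaks crowd the upper side of Ets1 (23 and 3) and Fli1 (7 and 1) and the lower side of Etv6 (2 and 27) and Ets2 (1 and 10).

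Elf3 (ENSMUSG00000003051.13, chromosome 1, 135253575 to 135258568, minus strand) showed the widest gap in promoter percentile of the 7 genes with a promoter peak in both libraries. Its strongest promoter peak had 2.78 in labelled replicate 2 (20.7th percentile) and 7.83 in labelled replicate 1 (82.9th). The 2 values come from different places. The peak of 7.83 lay on the start itself and had no counterpart in labelled replicate 2. The peak of 2.78 lay 0.713 kb upstream, where labelled replicate 1 had 4.29, and it was not counted with a window of 500 bp. Distal peaks numbered 0 in labelled replicate 2 and 2 in labelled replicate 1, and 1 and 22 with flanks of 100 kb. Epithelial markers with a promoter peak had a median percentile of 14.7 in labelled replicate 2 and 34.2 in labelled replicate 1. Their signals summed to 8.55 and 22.2, on a scale not known between libraries. Cldn4 went the other way, with 4.03 in labelled replicate 2 and no promoter peak in labelled replicate 1. Krt5 and Krt14 had none in either. The part of epithelial cells in the result for Elf3 was not tested.
Elf3 upstream, chr1:135259181-135259380, minus strand: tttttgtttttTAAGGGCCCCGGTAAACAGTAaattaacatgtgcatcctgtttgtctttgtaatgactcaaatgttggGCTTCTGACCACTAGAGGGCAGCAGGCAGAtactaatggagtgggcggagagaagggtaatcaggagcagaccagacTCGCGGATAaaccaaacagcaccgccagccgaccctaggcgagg
This is the shared upstream peak, on the strand of the gene, with footprints of both libraries in capitals. It held the CTCF core within a footprint, on the printed strand, and the AP-1 letters TGACTCA once outside.

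Across the 4 classes, the lymphoid genes had 54 distal peaks in labelled replicate 2 and 15 in labelled replicate 1, and the broadly expressed genes had 4 and 40. Spi1 and Spib together had 5 and 5, and Elf3 had 0 and 2. The whole set had 63 and 62, so the sum over the 10 hid opposite differences. With the stronger 50% of peaks the whole set had 26 and 34. Each of the 4 lymphoid genes had more distal peaks in labelled replicate 2, as did 18.2% of all genes. Each of the 3 broadly expressed genes and Elf3 had more in labelled replicate 1, as did 41.2% of all genes, and Spi1 and Spib had equal numbers. With the stronger 50% of peaks the order turned at Elf1 and at Gabpa, and it held at the other 3 lymphoid genes, the other 2 broadly expressed genes and Elf3. At least 1 distal peak was found at 9 of the 10 in labelled replicate 2 (61.7% of all genes) and at 10 in labelled replicate 1 (70.1%). At least 10 were found at 3 members in labelled replicate 2, Ets1, Elf1 and Elf4 (2.46% of all genes), and at 2 in labelled replicate 1, Etv6 and Ets2 (5.03%). That cut was chosen with earlier results of these data known, and Elf4 and Ets2 had 10 there, exactly at it. Longer domains can hold more peaks, and a count takes no account of length. The median density was 3.54 per 100 kb over the members and 1.60 over all genes in labelled replicate 2, and 4.40 and 2.16 in labelled replicate 1. Distal peaks over the thymocyte markers numbered 211 in labelled replicate 2 and 37 in labelled replicate 1, and over the acinar markers 15 and 239. These are sums over genes, so a peak counts more than once where domains overlap, as at Cd3d and Cd3g.

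**Figure D5:**
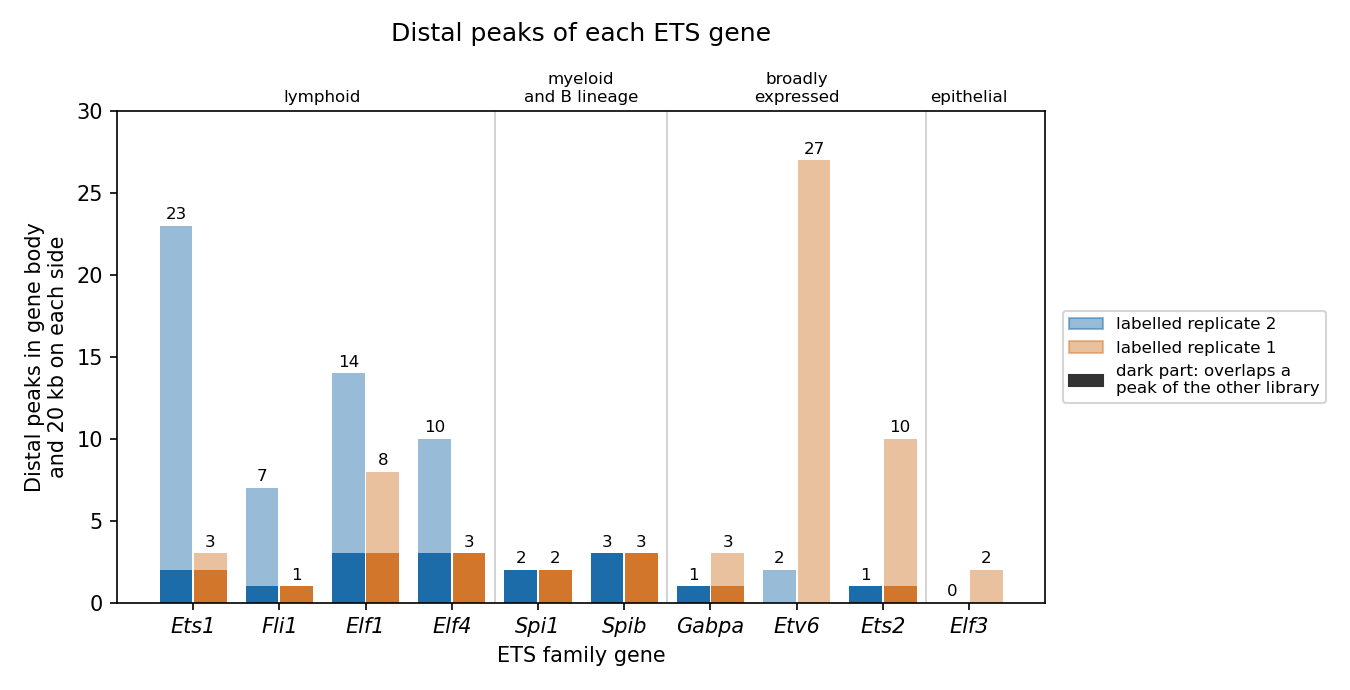
Number of distal peaks (vertical axis) in the gene body and 20 kb on each side for labelled replicate 2 (left bar) and labelled replicate 1 (right bar), the dark part being peaks that overlap a peak of the other library. The 4 lymphoid genes have higher bars in labelled replicate 2, up to 23 at Ets1, and Etv6 and Ets2 in labelled replicate 1, up to 27 at Etv6.

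Promoter peaks of the members were shared more often than their distal peaks. Of 23 promoter peaks in each library 16 overlapped a peak of the other library (69.6% of each list), and of the distal peaks 16 did in each (25.4% of 63 and 25.8% of 62). Over all genes the shares were 75.9% and 60.1% at promoters and 49.1% and 32.3% at distal peaks, for labelled replicate 2 and labelled replicate 1. Pooled over the members, distal peaks were thus shared less often than those of all genes in both libraries, as a description of these lists. The pooled shares lean on the genes with the most peaks. In labelled replicate 1, Etv6 shared 0 of 27, Ets2 1 of 10 and Elf3 0 of 2. Every other member stood above 32.3% there. In labelled replicate 2, Ets1 shared 2 of 23, and Fli1, Elf1, Elf4 and Etv6 were also below 49.1%. Spi1, Spib, Gabpa and Ets2 shared all of theirs there, and Elf3 had no distal peak.

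The promoter peaks of the members held 112 footprints in labelled replicate 2 and 89 in labelled replicate 1, and 52 and 53 of them overlapped a footprint of the other library. The distal peaks held 158 and 152, of which 26 and 28 did. The shared part was 46.4% and 59.55% at promoters, against 55.6% and 53.1% over all genes. At distal peaks it was 16.5% and 18.4%, against 36.6% and 28.7% over all genes. Per kb of promoter peak there were 15.2 in labelled replicate 2 and 14.9 in labelled replicate 1, against 13.8 and 11.6 over all genes. Per kb of distal peak there were 12.5 and 8.95, against 13.3 and 11.4 over all genes.

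Whether the ETS genes carry the sequence that their own products bind was asked by counting letters on both strands. The consensus CCGGAAGT lay in 0 footprints of the members' peaks in either library, and once in the rest of their promoter peaks in each. Among all promoter peaks it occurred 0.362 times per kb of footprint and 0.0796 per kb of the rest in labelled replicate 2, and 0.256 and 0.0764 in labelled replicate 1. Over all distal peaks it occurred 0.0445 and 0.0125 times per kb of footprint. The members' footprints came to only 1.49 and 1.10 kb at promoters and 1.98 and 1.88 kb at distal peaks. At these rates so few bases hold few matches, so a count of 0 does not set the members apart from all peaks. The short core GGAA lay in member footprints 21 times in labelled replicate 2 and 12 times in labelled replicate 1. In the members' promoter peaks it was rarer per kb in footprints (4.71 and 5.47) than in the rest (12.6 and 12.3). Over all promoter peaks it was also rarer, 7.48 and 10.7 in labelled replicate 2 and 6.98 and 11.1 in labelled replicate 1. Matches that cross a footprint's edge were counted in neither. With footprints widened by 20 bp the gap was smaller at the members, 10.8 per kb in footprints and 12.7 in the rest in labelled replicate 2, and 10.35 and 13.8 in labelled replicate 1. Over all promoter peaks the order then turned in labelled replicate 2 (10.8 and 10.4) and did not in labelled replicate 1 (10.7 and 10.9). GGGCGG lay in promoter footprints of the members 8 times in labelled replicate 2 and 4 times in labelled replicate 1, or 5.38 and 3.65 per kb, against 9.13 and 8.04 per kb over all promoter peaks. The CTCF core lay in 1 promoter and 2 distal footprints in each library. Over all peaks it occurred 0.365 times per kb of promoter footprint in labelled replicate 2 and 0.3015 in labelled replicate 1. Per kb of distal footprint it occurred 1.88 and 1.57 times. The members' rate was above these at promoters, from 1 match in each library, and below them at distal peaks. So few matches do not set the members apart from all peaks.

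In the RefSeq table of promoter sequences on GRCm38, which runs from before to just after each start, 7 of the 10 genes had an entry. These 7 had 9 promoters in it, and Ets1, Fli1 and Spi1 had none. CCGGAAGT was in 0 of the 9 and in 3.89% of the 32851 promoters of the table. GGGCGG was in 6 of the 9, at Elf1, Elf4, Ets2, Etv6 and Spib, and in 35.7% of all. GGAA was in all 9 and in 96.0% of all, and the CTCF core was in 0 of the 9 and in 1.47% of all. A match of letters describes the sequence, and no match says only that these letters are not in this window.

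The other 16 ETS family genes were counted in the same way. Of these, 13 had a promoter peak in labelled replicate 2 and 13 in labelled replicate 1, and 12 had one in both. These were 81.25%, 81.25% and 75% of the 16, against 60.1%, 63.1% and 56.7% of all protein-coding genes. Erg, a factor of blood stem cells and endothelium, had one in labelled replicate 2 only (3.11), and Ehf, an epithelial factor, in labelled replicate 1 only (1.44). Of all genes, 3.37% had one in labelled replicate 2 only and 6.41% in labelled replicate 1 only. Fev, known from serotonin neurons, and Spic, known from red pulp macrophages, had none in either. Etv5, Erf and Elk4 had the highest mean percentiles, at 73.2, 76.8 and 77.0 in labelled replicate 2 and 77.1, 68.0 and 55.2 in labelled replicate 1. Elk3 had 11 distal peaks in labelled replicate 2 and 25 in labelled replicate 1. With the 10 members, 22 of 26 ETS genes had a promoter peak in labelled replicate 2 and 20 in labelled replicate 1, and 19 had one in both. These were 84.6%, 76.9% and 73.1% of the 26, beside the same shares of all genes.

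The genes most like Ets1 were found among the 12436 genes with a promoter peak in both libraries. Likeness was the sum of the absolute differences in 4 percentiles, those of promoter signal and of distal density in each library, ranked among these genes. Gtf3c1 was nearest with a sum of 14.9 points, followed by Iqcd with 18.1 and Tubd1 with 18.4. Gtf3c1 had 17 distal peaks in labelled replicate 2 and 2 in labelled replicate 1, beside a promoter signal of 23.8 and 9.12. As a measure over only 2 libraries this is a description.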

How the data were processed

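DNase-seq lists of 2 thymus libraries were used as deposited on mm10, per the labels. Each library has 2 deposited peak lists whose column 7 is the signal of a peak, set by the authors on a scale that no source used here states. The deposited footprint lists hold a score that was 0.01 in every row and ranks nothing. The deposited cut rate tables hold a false discovery rate, a kind of p-value, per interval, and list only intervals under 0.05. No source used here names the aligner, the callers or the read depth, so no counting interval could be had.

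The shorter list was the main one, with 60644 peaks in labelled replicate 2 and 85367 in labelled replicate 1. Of these, 1.89% and 2.79% overlapped an earlier entry of the same list, and each entry was counted. No peak passed a chromosome end of GRCm38. Promoters were 1 kb on each side of any of 132850 GENCODE M21 transcript starts. Distal peaks lay outside every promoter window with the midpoint in the gene body or 20 kb on each side. An overlap of 1 bp or more made peaks and footprints shared. Sequences came from GRCm38.p6 and promoter sequences from RefSeq. Python 3.11.15, NumPy 2.4.6, pandas 2.3.3 and pysam 0.24.0 were used. The counting was checked on simulated data, where 200 of 200 planted genes were recovered.

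The members, their classes, the marker and gene lists, and the count of at least 10 distal peaks were chosen with earlier results of these data known. All 10 members are named. Of the other ETS genes those open in 1 library or in none, and the 3 with the highest mean percentile, are named by rule, and Elk3 was added after its values were seen. Sequences are of the strongest promoter peak found in both libraries and the strongest distal peaks of Ets1, Fli1 and Spi1, as a selection, without UTR bases. A peak wholly in a UTR was passed over for the next strongest. That rule, the CTCF core, the tRNA lookup, the RefSeq starts, the merging of overlapping entries and the count of GGAA in widened footprints were added after seeing the data. The alternatives were the longer list, the stronger 50% of peaks, promoter windows of 500 and 2500 bp, the gene's 5' end alone, flanks of 5 and 100 kb, an overlap of 50%, footprints widened by 20 bp and each library left out.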

Additional observations from a re-analysis of the deposited data

How the results depend on the processing

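No paired analysis was possible because the 2 libraries form 1 group. Counts are taken as moved when they differ by more than 1.5 times, and percentiles when they differ by more than the SD of the 2 libraries. Of 525 alternative values 3 changed sign, all with the stronger 50% of peaks: the difference in distal peaks (replicate 2 minus replicate 1) was -3 at Elf1 (6 as reported), 1 at Gabpa (-2) and -8 over all 10 genes (1). Over all 10 it was 26 with the longer lists, and 6 and 9 with flanks of 5 and 100 kb. Only differences could change sign. Of the values over classes, all genes or all members, 112 stayed within these limits and 50 moved. The median promoter percentile in labelled replicate 2, 33.4 as reported, was 48.3 with a window of 500 bp, where 7 members are left, and 23.4 with the stronger 50% of peaks. Values below give labelled replicate 2 first. With the longer lists distal peaks were 96 and 24 at the lymphoid genes, 13 at the broadly expressed genes and 114 over all 10 in labelled replicate 2, and lymphoid footprints there were 271, against 178 in the main count. The differences (replicate 2 minus replicate 1) became 72 for lymphoid, -2 for myeloid and B lineage and -4 for epithelial genes. With the stronger 50% of peaks distal sums were 20 and 9 for lymphoid, 1 and 18 for broadly expressed and 26 and 34 for all, with differences of 11 and -17. With flanks of 100 kb, where the domains of Ets1 and Fli1 overlap, distal sums were 99 and 31 for lymphoid, 9 and 11 for myeloid and B lineage, 22 in labelled replicate 2 for broadly expressed, and 131 and 122 for all. Footprints were then 318 and 87 for lymphoid genes, 461 and 387 for all, 110 for broadly expressed genes in labelled replicate 2 and 30 for myeloid and B lineage genes in labelled replicate 1. The differences were 68 for lymphoid, -2 for myeloid and B lineage and -21 for the epithelial gene, which was -1 with flanks of 5 kb. The share of all genes with a promoter peak was 62.9% and 66.4% with a window of 2500 bp, and 55.3% and 58.6% at the 5' end alone. With 1 library left out, the mean distal sum ranged from 15 to 54 for lymphoid genes (34.5 with both) and from 4 to 40 for broadly expressed genes (22 with both). Footprints widened by 20 bp held CCGGAAGT 2 times and 1 time, and the core GGAA 114 and 105 times, against 21 and 12 times in footprints as deposited. The causes of these moves were not tested beyond what each alternative adds or removes. Unknown depth limits every statement that a peak was not listed.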
